A study of Mus musculus with 17 samples.

Results

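The 36 genes described here carry out or mark DNA synthesis and cell division. They comprise 16 S phase genes, 18 genes of the G2 phase and mitosis (G2/M) and the 2 E-type cyclins that start S phase. They were chosen by name, and all 36 were among the 48397 gene symbols of the bulk RNA-seq tables and among the 31053 or 28692 symbols of the single-cell matrices. The study asked what PD-L1, the ligand of the inhibitory receptor PD-1, does when it is engaged on T cells. Its 12 bulk libraries, 3 to a group, are labelled as T cells from WT mouse spleen that were stimulated with antibodies to CD3 and CD28. By title the groups are PD1_Fc (stimulation plus a PD-1 Fc fusion protein, at 2.5 ug/ml in the protocol), Ctrl_Fc (stimulation plus control IgG Fc at 2.5 ug/ml), PDL1_Fc (a name the protocol does not describe) and Control (stimulation only). The treatment field contradicts the title of 4 libraries, giving PDL1 Fc for PD1_Fc library 3 and PD1 Fc for PDL1_Fc libraries 1 to 3, and the titles were followed. The design text also speaks of PDL1 knockout T cells, although all 12 libraries are labelled WT. The 5 single-cell libraries are labelled untreated tumour-infiltrating T cells of mice that are PDL1 floxed/floxed-CD4Cre, PDL1 floxed/WT-CD4Cre, CD4Cre, PDL1 floxed/floxed and WT. The design text describes them as CD45-positive leukocytes sorted from pancreatic tumours 3 weeks after orthotopic implantation. Cre is driven by the Cd4 promoter, so the floxed gene is aimed at in T cells. There was 1 library per genotype.

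A cell that divides first licenses its replication origins by loading the ring-shaped MCM helicase, then fires them in S phase under cyclin E and cyclin A with CDK2, while ribonucleotide reductase and thymidylate synthase supply the DNA building blocks. In G2 it accumulates cyclin B with CDK1, enters mitosis, builds a spindle with kinesins and Aurora and Polo kinases, and leaves mitosis when the anaphase-promoting complex with Cdc20 destroys the cyclins. S phase genes are largely switched on by E2F factors after release from RB, and many G2/M genes by the MuvB complex with B-MYB and FOXM1, acting through CHR and CCAAT elements. Naive splenic T cells rest outside the cycle, and stimulation through CD3 and CD28 brings them into it.

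Gene counts per library were 4364803 to 5006301 in PD1_Fc, 3473884 to 4662029 in Ctrl_Fc, 14880455 to 16020727 in PDL1_Fc and 16732833 to 18557390 in Control. Reads that did not align made up 79.9 to 80.3% in PD1_Fc, 80.1 to 80.4% in Ctrl_Fc, 9.78 to 10.3% in PDL1_Fc and 8.95 to 11.2% in Control. T cell markers were abundant in only 6 of the 12 libraries. Summed CPM (a gene's counts per 1000000 gene counts of the library) of 8 T cell markers were 1190 to 1240 in PD1_Fc, 1190 to 1360 in Ctrl_Fc, 7.49 to 9.00 in PDL1_Fc and 6.85 to 7.60 in Control. Cd3d, which encodes a CD3 chain, was at 0 in PD1_Fc and Ctrl_Fc, as was Cd3g in PDL1_Fc and Control. Summed CPM of 9 macrophage markers were 41.7 to 140 in PD1_Fc, 35.3 to 142 in Ctrl_Fc, 22600 to 24500 in PDL1_Fc and 18900 to 26900 in Control. The kinetochore genes Zwint and Cenpa, given below, were near 0 in PD1_Fc and Ctrl_Fc too. The origin of the unaligned reads, and its part in the levels and the order of genes in these libraries, was not tested. Libraries PD1_Fc and Ctrl_Fc stood apart from PDL1_Fc and Control in depth, alignment and cell type markers at once. Of the 5 bulk comparisons, PD1_Fc against Ctrl_Fc and PDL1_Fc against Control lie within these sets, while Ctrl_Fc against Control and PD1_Fc against PDL1_Fc run across them. Nothing states that the libraries of a group came from separate animals or cultures, so p-values measure the spread between these libraries, which may be technical.

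Promoters of 6 members are shown because the comparisons below turn on these genes and they represent both phases: the replicative helicase subunit Mcm6 and both chains of ribonucleotide reductase (Rrm1, Rrm2) for S phase, and topoisomerase IIα (Top2a), Cdk1 and Cdc20 for G2/M. Each line gives the 200 bases before the RefSeq gene start on the coding strand (RefSeq, GRCm38.p6), from 5′ to 3′, and capitals mark any match, on either strand, to the E2F motif TTCCCGC, the CHR motif TTTGAA or the CCAAT box. The windows lie at chr1:128359706-128359905 for Mcm6 (minus strand), chr7:102441495-102441694 for Rrm1 (plus), chr12:24708054-24708253 for Rrm2 (plus), chr11:99024190-99024389 for Top2a (minus), chr10:69352913-69353112 for Cdk1 (minus) and chr4:118437344-118437543 for Cdc20 (minus).
Mcm6: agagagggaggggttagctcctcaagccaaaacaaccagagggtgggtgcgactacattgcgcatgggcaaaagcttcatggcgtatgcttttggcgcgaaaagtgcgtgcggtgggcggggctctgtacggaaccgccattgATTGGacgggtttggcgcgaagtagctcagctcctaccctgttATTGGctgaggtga
Rrm1: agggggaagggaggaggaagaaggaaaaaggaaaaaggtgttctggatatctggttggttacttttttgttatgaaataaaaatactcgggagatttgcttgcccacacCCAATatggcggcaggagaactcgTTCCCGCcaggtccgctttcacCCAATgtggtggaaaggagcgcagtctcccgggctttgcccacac
Rrm2: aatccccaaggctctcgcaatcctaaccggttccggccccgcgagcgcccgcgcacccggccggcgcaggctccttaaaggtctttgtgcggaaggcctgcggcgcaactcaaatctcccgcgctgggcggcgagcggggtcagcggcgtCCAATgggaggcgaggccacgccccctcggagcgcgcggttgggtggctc
Top2a: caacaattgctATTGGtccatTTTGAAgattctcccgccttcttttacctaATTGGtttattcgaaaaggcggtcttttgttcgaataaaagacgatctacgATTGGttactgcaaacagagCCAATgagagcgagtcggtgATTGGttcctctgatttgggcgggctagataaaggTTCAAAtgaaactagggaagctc
Cdk1: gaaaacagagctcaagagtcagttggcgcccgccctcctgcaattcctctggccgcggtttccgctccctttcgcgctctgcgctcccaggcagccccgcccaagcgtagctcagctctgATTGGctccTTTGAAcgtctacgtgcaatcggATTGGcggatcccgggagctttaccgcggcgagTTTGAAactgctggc
Cdc20: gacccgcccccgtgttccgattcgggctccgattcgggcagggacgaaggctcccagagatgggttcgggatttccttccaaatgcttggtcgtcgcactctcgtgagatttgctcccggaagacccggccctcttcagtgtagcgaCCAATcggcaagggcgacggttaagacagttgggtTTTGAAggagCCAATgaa

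Among the 30 of 36 members matched in the RefSeq promoter table (300-base windows, 250 before to 50 after the start, with more than 1 window for some genes), most G2/M genes had both the CHR and the CCAAT letters. A gene was counted where any of its windows held the motif, and 27025 genes had a window. CHR (TTTGAA or TTCAAA) was found for 10 of 15 G2/M genes (66.7%), for 2 of 14 S phase genes (14.3%) and for 20.2% of all genes. A CCAAT box (CCAAT or ATTGG) was found for 13 of 15 G2/M genes (86.7%), for 11 of 14 S phase genes (78.6%) and for 41.1% of all. Both motifs in the same window were present for 66.7% of G2/M, 14.3% of S phase and 7.97% of all genes. The E2F heptamer (TTCCCGC or GCGGGAA) was found for 5 of 14 S phase genes (35.7%: Mcm3, Mcm7, Rrm1, Cdc6 and Uhrf1), for 0 of 15 G2/M genes and for 5.29% of all. None of the 3 motifs contains another. The remaining matched gene is Ccne1. A match is a description of letters only. The Ccnb1 window held CCAAT 2 times and no CHR match, although Ccnb1, the mitotic cyclin B1, belongs to G2/M.

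The cycle genes were far more abundant in PD1_Fc and Ctrl_Fc than in PDL1_Fc and Control. The 16 S phase genes summed to 4450 to 4530 CPM in PD1_Fc, 4310 to 4380 CPM in Ctrl_Fc, 150 to 159 CPM in PDL1_Fc and 151 to 169 CPM in Control. The 18 G2/M genes summed to 1930 to 1990 CPM in PD1_Fc, 1670 to 1890 CPM in Ctrl_Fc, 63.2 to 69.9 CPM in PDL1_Fc and 64.2 to 73.7 CPM in Control. In bulk RNA, fewer cells in cycle and less RNA per cycling cell cannot be told apart. Nor can either be told apart here from the split in cell type markers and unaligned reads given above.

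Levels between genes were compared as CPM per kilobase of exon. In PD1_Fc the highest were the MCM subunits Mcm6 (170), Mcm4 (151) and Mcm3 (140), followed by Top2a (99.2), which untangles replicated DNA, Mcm5 (92.8), Mcm7 (82.5), the mitotic kinase Plk1 (81.7) and Mcm2 (78.1). Ctrl_Fc had the same 8 genes at the top, from Mcm6 (151), Mcm4 (146) and Mcm3 (140) down to Mcm2 (76.6) and Plk1 (75.7). The bottom of the order in PD1_Fc held Nusap1 (1.46), Mki67 (1.19), the nuclear protein Ki-67 used to stain cycling cells, and Ccnb1 (0.114). PDL1_Fc and Control had a different order. Pcna, the sliding clamp of DNA polymerases, stood first (20.8 in PDL1_Fc, 20.6 in Control), followed by Ccne1 (6.85 in each) and Cdk1 (3.42 in PDL1_Fc, 3.58 in Control). At 10 CPM per kilobase or more stood 24 members in PD1_Fc, 23 in Ctrl_Fc, 1 in PDL1_Fc and 1 in Control, and the medians over the members were 18.05 in PD1_Fc, 17.35 in Ctrl_Fc, 0.81 in PDL1_Fc and 0.87 in Control.

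For the members given here, the libraries of a group lay close together in PD1_Fc and Ctrl_Fc. In PDL1_Fc and Control some members spread more, Cdc20 and Cdc45 among them. Mcm2, a subunit of the helicase, had 545, 550 and 535 CPM in PD1_Fc and 536, 542 and 520 CPM in Ctrl_Fc, against 5.42, 6.79 and 4.81 CPM in PDL1_Fc and 4.64, 5.93 and 5.32 CPM in Control. Rrm1 had 504, 514 and 506 CPM in PD1_Fc and 489, 477 and 505 CPM in Ctrl_Fc, against 10.2, 11.3 and 10.5 CPM in PDL1_Fc and 10.7, 13.6 and 10.9 CPM in Control. Cdc45, which completes the active fork helicase, had 138, 145 and 139 CPM in PD1_Fc and 129, 139 and 119 CPM in Ctrl_Fc, against 1.83, 1.41 and 2 CPM in PDL1_Fc and 1.62, 0.916 and 3.17 CPM in Control. None of these genes overlapped between the library sets. Among the mitotic kinases, Plk1 had 171, 175 and 193 CPM in PD1_Fc and 177, 168 and 154 CPM in Ctrl_Fc, against 3.26, 2.62 and 2.18 CPM in PDL1_Fc and 2.48, 2.37 and 2.21 CPM in Control. Aurkb, the Aurora kinase of the chromosomal passenger complex, had 53.8, 50.6 and 48.1 CPM in PD1_Fc and 45.2, 46.3 and 49.3 CPM in Ctrl_Fc, against 5.48, 4.91 and 4.99 CPM in PDL1_Fc and 4.26, 5.87 and 5.92 CPM in Control. Aurkb thus lay below Plk1 in PD1_Fc and Ctrl_Fc and above it in PDL1_Fc and Control. Cdc20 had 87.7, 90.5 and 92.1 CPM in PD1_Fc and 84.3, 96.5 and 78.5 CPM in Ctrl_Fc, against 0.392, 0.538 and 0.0624 CPM in PDL1_Fc and 0.270, 0.593 and 0.359 CPM in Control. Licensing factor Cdc6 and the uracil glycosylase Ung were among the members with smaller gaps, at 19.8 to 25.1 and 18.2 to 21.0 CPM in PD1_Fc, against 1.69 to 2.96 and 3.65 to 5.38 CPM in PDL1_Fc.

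**Figure D1:**
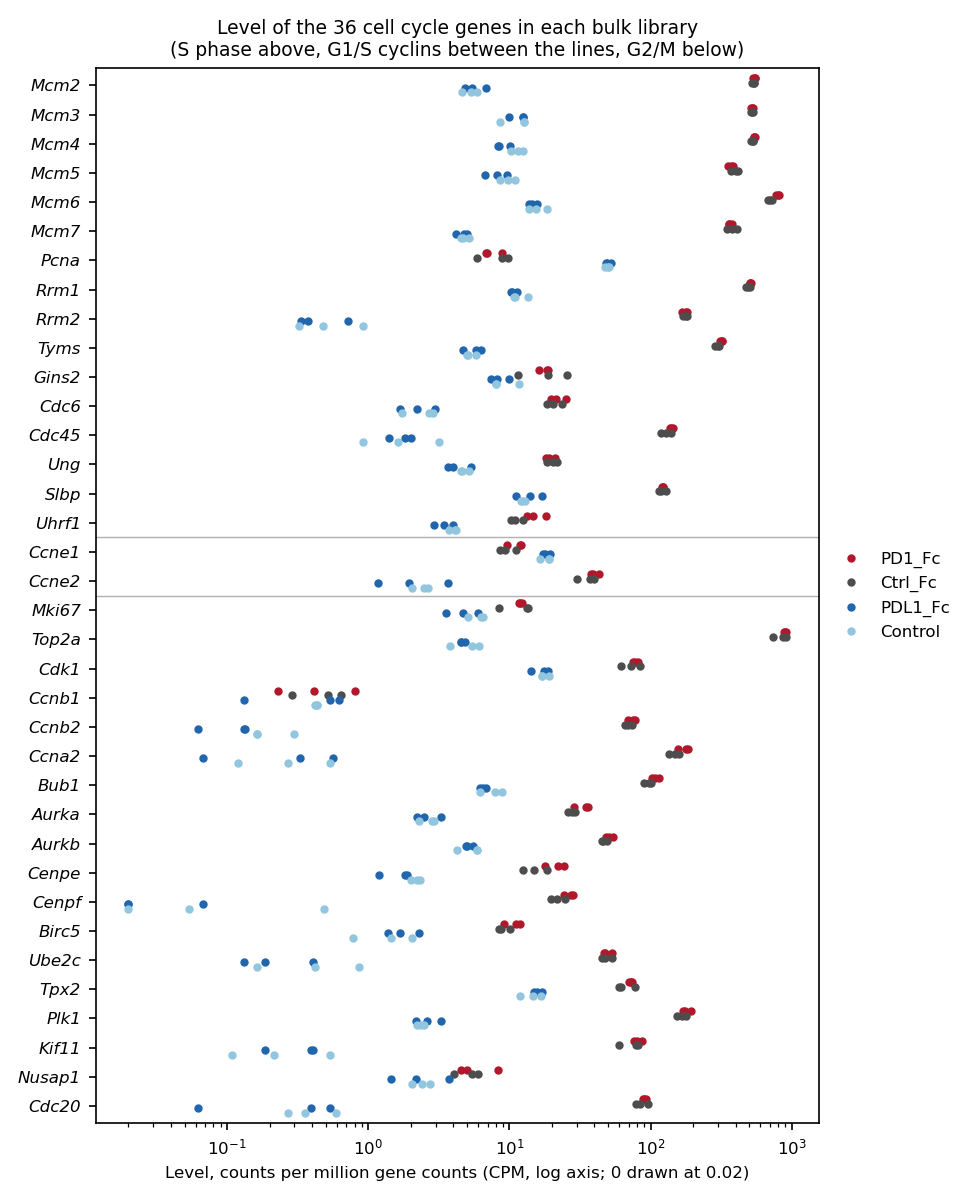
CPM of the 36 members in each of the 12 bulk libraries on a log axis, one row per gene, ordered by role, with points coloured by group and values of 0 drawn at 0.02. Most members lie higher in PD1_Fc and Ctrl_Fc than in PDL1_Fc and Control, while Pcna and Ccne1 lie lower.

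With PD-1 Fc against control Fc, no cycle gene passed the test, while nearly all lay slightly on the higher side. Of 14653 genes tested with edgeR on all 12 libraries, 7 passed an adjusted p of 0.05 in PD1_Fc against Ctrl_Fc (0.0478%), 1 higher (0.00682%) and 6 lower (0.0409%), and 0 of the 35 members tested were among them. Ccnb1, with 7 reads in PD1_Fc, 6 in Ctrl_Fc, 20 in PDL1_Fc and 23 in Control, was too low to test. The log2 change was above 0 for 32 of the 35 members, against 59.1% of all genes tested, with a median of 0.16 against 0.05 for all genes. Scaling by DESeq2 size factors left 28 of 35 members above 0, against 47.4% of all genes, with medians of 0.09 for members and 0.00 for all genes. By role, 17 of 17 G2/M genes were above 0 (16 with DESeq2 size factors), with a median of 0.19, as were 13 of 16 S phase genes (10 with DESeq2 size factors), with a median of 0.09, and both E-type cyclins under either scaling. An unadjusted p below 0.05 was reached by 4 of 35 members and by 5.26% of all genes. DESeq2, another tool, called 0 of the members at an adjusted p of 0.05.

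Mcm6 had 798, 806 and 774 CPM in PD1_Fc, against 707, 677 and 728 CPM in Ctrl_Fc. Every PD1_Fc library was above every Ctrl_Fc library. The log2 change was 0.24 (SE 0.09, adjusted p = 0.919), and over the alternatives that keep the groups of the titles it ran from 0.17 to 0.32 with adjusted p from 0.184 to 1. Uhrf1, which couples DNA methylation to replication, had 13.4, 14.7 and 18.2 CPM in PD1_Fc, against 10.9, 12.4 and 10.3 CPM in Ctrl_Fc. The groups did not overlap (log2 change 0.53, SE 0.22, adjusted p = 0.926). In all, 5 members were higher in every PD1_Fc library (Mcm6, Uhrf1, Bub1, Tyms and Mcm4, where 5.64% of all genes were) and 0 were lower in every one (5.73% of all genes).

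Cenpe, a kinesin that carries chromosomes to the spindle equator, had 24.2, 22 and 18 CPM in PD1_Fc, against 18.4, 14.9 and 12.4 CPM in Ctrl_Fc. The lowest PD1_Fc library fell inside the Ctrl_Fc range. Its log2 change was 0.57 (SE 0.21, adjusted p = 0.911). Ccna2, cyclin A2 of S phase and G2, had 179, 183 and 157 CPM in PD1_Fc, against 150, 134 and 160 CPM in Ctrl_Fc. One library of each group crossed over (log2 change 0.28, SE 0.12, adjusted p = 0.926).

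The genes most often used as proliferation markers did not pass either. Mki67 had 11.9, 11.7 and 12.2 CPM in PD1_Fc, against 13.5, 13.4 and 8.37 CPM in Ctrl_Fc. All PD1_Fc libraries lay inside the Ctrl_Fc range, and the log2 change of 0.11 had a 95% interval of -0.34 to 0.56. Top2a had 882, 906 and 894 CPM in PD1_Fc, against 866, 740 and 911 CPM in Ctrl_Fc (log2 change 0.15, SE 0.10). Cdk1, the kinase that drives entry into mitosis, had 81.0, 74.7 and 77.1 CPM in PD1_Fc, against 72.3, 62.0 and 84.1 CPM in Ctrl_Fc (log2 change 0.15, SE 0.13). For both genes the PD1_Fc libraries lay inside the Ctrl_Fc range. Rrm2 had 181, 178 and 167 CPM in PD1_Fc, against 179, 171 and 181 CPM in Ctrl_Fc (log2 change 0.05, SE 0.11), so the groups overlapped almost wholly. Pcna differed by -0.04 (SE 0.22), Mcm5 by -0.03 (SE 0.10) and Gins2, a subunit of the GINS complex of the fork helicase, by 0.00 (SE 0.21). Ccne1 differed by 0.26 (SE 0.21) and Ccne2 by 0.22 (SE 0.18). The adjusted p of all these genes was 0.932 or more. On simulated counts of this comparison, 53.7% of genes changed by 1.5-fold and 88.1% of those changed by 2-fold were called.

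PDL1_Fc against Control also gave no call, with the cycle genes slightly on the lower side. None of the 14653 genes passed an adjusted p of 0.05 with edgeR (0.0%), so 0 of 35 members did. A log2 change above 0 was found for 11 of 35 members, against 46.9% of all genes, and the members' median was -0.09. An unadjusted p below 0.05 was reached by 2 members, against 3.6% of all genes, and both were lower. Mcm4 had 10.1, 8.33 and 8.49 CPM in PDL1_Fc, against 12.4, 11.5 and 10.2 CPM in Control. The groups came close but did not overlap (log2 change -0.35, SE 0.13, adjusted p = 1). Cenpf, a kinetochore protein of G2 and mitosis, rested on 1 read in PDL1_Fc and 10 reads in Control, a ratio of 0.116 with a counting interval of 0.00268 to 0.818, and 9 of the 10 came from a single Control library. The next smallest p among the lower members was that of Mcm5 (log2 change -0.26, adjusted p = 1). On the higher side, Slbp, which binds the stem-loop of histone mRNAs, differed by 0.17, the spindle assembly factor Tpx2 by 0.14 and Birc5, the survivin of the chromosomal passenger complex, by 0.30, each with an adjusted p of 1.

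The usual markers showed the same absence of calls. Mki67 had 5.94, 3.56 and 4.68 CPM in PDL1_Fc, against 6.26, 5.07 and 6.45 CPM in Control (log2 change -0.33). Pcna had 52.2, 49.4 and 48.2 CPM in PDL1_Fc, against 47.6, 50.2 and 50.7 CPM in Control (log2 change 0.01). The groups overlapped for both genes. Log2 changes were -0.12 for Top2a, -0.08 for Cdk1, -0.12 for Mcm6, -0.27 for Rrm2, -0.01 for Ccne1 and -0.07 for Ccne2. Lower in every PDL1_Fc library were 3 members (Mcm4, Cenpe and Ccnb2), where 3.62% of all genes were, and higher in every one were 0 members, where 4.18% of all genes were. Simulated counts at the depth of this comparison gave calls for 82.1% of genes changed by 1.5-fold.

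**Figure D2:**
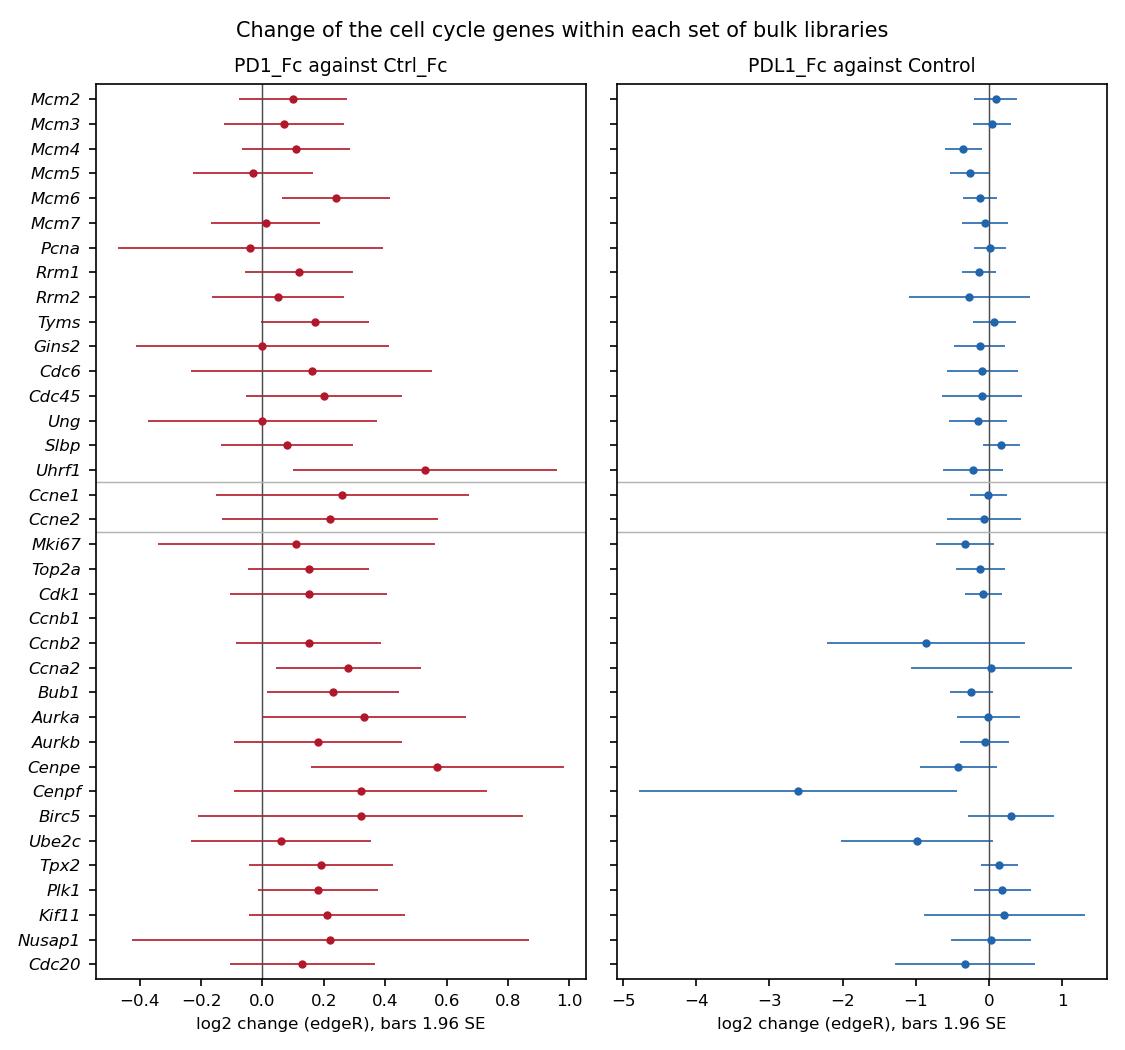
Log2 change of each member tested with edgeR in PD1_Fc against Ctrl_Fc and in PDL1_Fc against Control, with bars for the 95% interval, ordered by role. The panels have axes of different width. In PD1_Fc against Ctrl_Fc 32 of 35 points lie above 0 (28 of 35 with DESeq2 size factors), and in PDL1_Fc against Control 24 of 35 lie below; no member passed the test in either.

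The difference between these changes was tested in the same edgeR fit (PD1_Fc over Ctrl_Fc less PDL1_Fc over Control). Of the members 0 passed (0.00682% of all genes did), and 6 reached an unadjusted p below 0.05, against 5.47% of all genes. These were Cenpe (0.99, SE 0.34), Mcm4 (0.46), Cenpf (2.93, few counts as above), the checkpoint kinase Bub1 (0.47), Uhrf1 (0.75) and Mcm6 (0.36), with adjusted p from 0.788 to 0.865. The difference was above 0 for 32 of 35 members, against 57.9% of all genes, and for 26 of 35 when libraries were scaled by DESeq2 size factors.

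Across the library sets most cycle genes were far higher in PD1_Fc and Ctrl_Fc than in PDL1_Fc and Control. In Ctrl_Fc against Control 30 of 35 members rose (44.4% of all genes did) and 2 fell (47.4% of all genes), and the members' median log2 change was 4.60, against -0.13 for all genes. In PD1_Fc against PDL1_Fc 31 of 35 rose (45% of all genes) and 2 fell (46.8%), with a median of 4.82 against -0.07. These comparisons share no library with each other, but each coincides with the split in depth, in unaligned reads and in T cell and macrophage markers given above, so the treatment and the library set cannot be told apart. Without scaling factors the median of all genes was 0.61 in Ctrl_Fc against Control and 0.60 in PD1_Fc against PDL1_Fc. The calls over all genes then split into 7683 higher and 5851 lower in Ctrl_Fc against Control, where the scaled fit gave 6502 higher and 6950 lower. In PD1_Fc against PDL1_Fc they split into 7673 higher and 5895 lower without scaling, and into 6592 higher and 6863 lower with it. Pcna and Ccne1 were lower under each of the 3 scalings.

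The largest changes in Ctrl_Fc against Control were those of Ccna2, Ccnb2, Rrm2, Kif11 and Cdc20. Ccna2 averaged 148 ± 12.9 CPM in Ctrl_Fc and 0.309 ± 0.212 CPM in Control (SD, n = 3 each; log2 change 8.08, SE 0.22, adjusted p = 5.02e-39 with edgeR). Ccnb2, cyclin B2, had 69.1, 73.4 and 65.9 CPM in Ctrl_Fc, against 0.162, 0.162 and 0.299 CPM in Control (log2 change 7.59, SE 0.23, adjusted p = 9.93e-42). Rrm2 had 179, 171 and 181 CPM in Ctrl_Fc, against 0.324, 0.916 and 0.478 CPM in Control (log2 change 7.5, SE 0.18, adjusted p = 2.23e-47). All Ctrl_Fc libraries were more than 100-fold above all Control libraries for these 3 genes. Kif11, the kinesin that separates spindle poles, followed with a log2 change of 7.24, Cdc20 with 6.94 and Top2a with 6.63. Mcm6 rose by 4.72 (SE 0.12) and Ccne2 by 3.15 (SE 0.21), while Cdk1 rose by 1.31 (SE 0.13).

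In PD1_Fc against PDL1_Fc the largest changes were those of Cenpf, Ccnb2, Ccna2, Rrm2 and Cdc20. Cenpf had 376 counts in PD1_Fc and 1 in PDL1_Fc, a ratio of 1220 with a counting interval of 218 to 48300. Ccnb2 differed by 8.60 on the log2 scale (SE 0.26, adjusted p = 2.94e-42), Ccna2 by 8.34 (SE 0.22, adjusted p = 1.71e-39), Rrm2 by 7.82 (SE 0.19, adjusted p = 3.2e-47) and Cdc20 by 7.39 (SE 0.22, adjusted p = 6.63e-42). Top2a rose by 6.91, Mcm6 by 5.08, Ccne2 by 3.44 and Cdk1 by 1.53. Mki67 had 11.9, 11.7 and 12.2 CPM in PD1_Fc, against 5.94, 3.56 and 4.68 CPM in PDL1_Fc. It rose by 0.66 (SE 0.22, adjusted p = 0.00379), less than most other G2/M genes, and did not pass without PDL1_Fc library 2 (0.36). In Ctrl_Fc against Control it missed the threshold (0.22, adjusted p = 0.331). Gins2 and Nusap1, a microtubule-bundling protein, passed in neither comparison.

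Pcna and Ccne1 went the other way. Pcna had 6.99, 6.87 and 8.79 CPM in PD1_Fc, against 52.2, 49.4 and 48.2 CPM in PDL1_Fc (log2 change -3.39, SE 0.15). It had 9.79, 5.92 and 8.79 CPM in Ctrl_Fc, against 47.6, 50.2 and 50.7 CPM in Control (log2 change -3.34, SE 0.16, adjusted p = 1.13e-30). No library of either pair overlapped. Ccne1 had 12.1, 9.62 and 11.8 CPM in PD1_Fc, against 19.3, 18 and 17.4 CPM in PDL1_Fc (log2 change -1.37, SE 0.17). In Ctrl_Fc it had 8.64, 9.27 and 11.2 CPM, against 19.2, 19.1 and 16.4 CPM in Control (log2 change -1.64, SE 0.17, adjusted p = 1.57e-13). Its close relative Ccne2 lay on the opposite side, with 37.6, 38.9 and 42.9 CPM in PD1_Fc against 1.17, 1.95 and 3.68 CPM in PDL1_Fc. Some members overlap other genes in their exons (67.3% of Gins2 with Gse1, 22.8% of Ube2c with Tnnc2, 17.4% of Ccne2 with Ints8, 12.5% of Ccna2 with Exosc9), and the strand setting of the counting is not given in the sources used here, so their counts are uncertain to that extent.

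The wider cell cycle machinery was followed in a list of 81 genes, of which 79 were in the tables and 76 were tested. In PD1_Fc against Ctrl_Fc 0 passed, 53 were above 0 and 22 below, with a median of 0.11, where 59.1% of all genes tested were above 0. With DESeq2 size factors 45 were above 0 and 30 below, where 47.4% of all genes were above. The smallest p belonged to Gmnn, geminin, which blocks relicensing of origins (log2 change 0.50, SE 0.21), to Cdk2, the S phase kinase (0.22, SE 0.09), and to the clamp loader subunit Rfc3 (0.26, SE 0.12), each with an adjusted p of 0.926. On the lower side Cdkn2c, an inhibitor of CDK4 and CDK6, differed by -0.21 and the antiproliferative gene Btg2 by -0.13. Zwint, a kinetochore linker, had 0 counts in PD1_Fc and 3 in Ctrl_Fc. In PDL1_Fc against Control 0 passed, 24 were above 0 and 52 below, with a median of -0.06, where 46.9% of all genes were above 0. The condensin subunit Smc2 differed by -0.60 (SE 0.21), the DNA ligase Lig1 by -0.35 and the cytokinesis kinesin Kif23 by -0.74, while the checkpoint kinase Ttk differed by 0.92 (SE 0.41) and the kinetochore gene Ndc80 by 0.47. E2f7, a repressor of the E2F family, had the next smallest p on the higher side, from few counts.

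Across the library sets 57 of 76 rose and 15 fell in Ctrl_Fc against Control, with a median of 1.67, where 44.4% of all genes rose and 47.4% fell. In PD1_Fc against PDL1_Fc 57 rose and 16 fell, with a median of 2, where 45% of all genes rose and 46.8% fell. The DNA polymerase genes Pole and Pola1 were among the 3 of smallest p. Pole, the catalytic subunit of polymerase ε, averaged 169 CPM in Ctrl_Fc and 0.241 CPM in Control (log2 change 8.65), and 177 CPM in PD1_Fc and 0.215 CPM in PDL1_Fc (log2 change 8.93). Pola1, of polymerase α, rose by 6.82 in Ctrl_Fc against Control and by 6.85 in PD1_Fc against PDL1_Fc. All 5 condensin genes rose in Ctrl_Fc against Control (median 5.45), Smc2 among them. Of 6 CDK inhibitors tested, 2 rose and 4 fell in Ctrl_Fc against Control, and 1 rose and 4 fell in PD1_Fc against PDL1_Fc. Cdkn1a, the p21 inhibitor, averaged 5.65 ± 3.60 CPM in PD1_Fc, 5.96 ± 3.77 CPM in Ctrl_Fc, 1450 ± 16.8 CPM in PDL1_Fc and 1410 ± 69.6 CPM in Control (SD, n = 3 each). Cdkn1b, the p27 inhibitor of resting T cells, averaged 142, 143, 77.1 and 71.9 CPM in the same order of groups. Cdkn2d, the p19 inhibitor of CDK4 and CDK6, fell by 3.87 in Ctrl_Fc against Control and by 3.93 in PD1_Fc against PDL1_Fc. Kinetochore genes were split. Cenpa, the centromeric histone, had 2 counts in Ctrl_Fc against 2483 in Control, 277-fold lower with a counting interval of 76.7 to 2290. It had 3 counts in PD1_Fc against 2050 in PDL1_Fc, 210-fold lower with an interval of 71.9 to 1020. Zwint had 3 counts in Ctrl_Fc against 4508 in Control (336-fold lower, interval 115 to 1630), and 0 counts in PD1_Fc against 4164 in PDL1_Fc, at least 428-fold lower with a floor of 3 counts over the group. Intervals and floors cover counting error only, and the part of the unaligned reads in these low counts was not tested.

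The single-cell libraries show which cells carried the cycle genes. The 5 matrices held 5342, 5884, 6138, 2878 and 2908 barcodes in the order PDL1 floxed/floxed-CD4Cre, PDL1 floxed/WT-CD4Cre, CD4Cre, PDL1 floxed/floxed and WT, and that order is kept in the lists below. Filters left 3456, 2980, 4259, 2796 and 2813 cells, with median depths of 13718.5, 12807.5, 6141, 10764.5 and 11125 UMIs (unique molecular identifiers). The 3 libraries with CD4Cre share barcodes far beyond the 12 that PDL1 floxed/floxed and WT share, with 1414 to 1856 per pair, or 23.0 to 34.7% of a library. The copy with fewer UMIs, at a median of 2.52 to 3.28% of the other, was left out where it had 5-fold fewer. Of the cells used in the Cre-carrying libraries, 998, 608 and 474 carry a shared barcode, and these were deeper (median 31344.5, 44006.5 and 21699 UMIs) than the cells with a barcode of their own (10238, 9934.5 and 5507 UMIs). In PDL1 floxed/floxed and WT 13 cells each carry one, so leaving out shared barcodes removes deep cells almost only from the Cre-carrying libraries. Values with every shared barcode left out, chosen after seeing the data, are also given for the summed G2/M levels of the named classes except neutrophils, for the G2/M shares, for single members between PDL1 floxed/floxed-CD4Cre and CD4Cre and for splits between libraries; other values include them unless stated. The Cre-carrying libraries and the other 2 also differ in their gene list (31053 and 28692 symbols), so Cre and this processing difference cannot be told apart.

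Classes of cells were assigned from marker UMIs. T cells, named on the labels of every library, numbered 61, 70, 117, 565 and 374, while the largest class was macrophages (1649, 1017, 905, 1198 and 1503), except in CD4Cre, where it was B cells (2238). Within the T cell class, summed T cell markers were 4550, 5900, 5070, 7450 and 7850 CPM, while macrophage markers were 713, 218, 767, 961 and 1360 CPM, neutrophil markers were 11.1, 22.7, 46.8, 618 and 1380 CPM, and epithelial markers were 319, 82.3, 33.6, 47.5 and 65.1 CPM. The part of such RNA of other cells in the levels below was not tested. With 1 library per genotype no test between genotypes is possible, and Poisson intervals (95%) cover counting error only.

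Cd274, the gene of PD-L1, was at 44.2, 35.5 and 70.2 CPM in T cells of PDL1 floxed/floxed-CD4Cre, PDL1 floxed/WT-CD4Cre and CD4Cre, against 9.87 and 7.52 CPM in PDL1 floxed/floxed and WT. The split was not particular to T cells. Macrophages had 144, 218 and 213 CPM, against 38.0 and 30.4 CPM. Migratory dendritic cells had 375, 426 and 325 CPM, against 161 and 86.4 CPM. The 3′ tag may lie outside the deleted part, so the level in T cells does not check the deletion.

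With shared barcodes included, T cells had the highest S phase level of the classes with 50 or more cells in every library. Their 16 S phase genes summed to 890 CPM (interval 812 to 973) in PDL1 floxed/floxed-CD4Cre, 1540 CPM (1450 to 1630) in PDL1 floxed/WT-CD4Cre, 775 CPM (721 to 832) in CD4Cre, 1410 CPM (1380 to 1440) in PDL1 floxed/floxed and 1330 CPM (1290 to 1370) in WT. Their 18 G2/M genes summed to 538 CPM (478 to 603), 1430 CPM (1340 to 1520), 561 CPM (515 to 609), 1490 CPM (1460 to 1530) and 1640 CPM (1590 to 1680) in the same order. The homozygous and the Cre-only library thus stood below the other 3, and their own intervals for G2/M overlapped. With shared barcodes left out, S phase genes in CD4Cre summed to 372 CPM in T cells and 801 CPM in 15 epithelial cells. In each other library their sum stayed higher in T cells than in epithelial cells. With shared barcodes included, macrophages were lower and more even than T cells, at 377, 383, 320, 356 and 412 CPM for S phase and 442, 454, 289, 347 and 321 CPM for G2/M. B cells had 129, 118, 368, 502 and 932 CPM of G2/M genes, and 63.4, 119, 156, 502 and 919 CPM with shared barcodes left out. Monocytes had 685, 246, 37.6, 275 and 1280 CPM. Epithelial cells, which a CD45 sort is meant to exclude, had 893, 1260, 1230, 560 and 602 CPM. With shared barcodes left out they had 360, 355, 385, 560 and 602 CPM (89, 179, 15, 62 and 127 cells), so the Cre-carrying libraries then lay below the other 2 instead of above them. The median depths of these epithelial cells were then 3462, 14488, 2610, 33136 and 26109 UMIs. The part of this loss of deep cells in the turn was not tested. Cells of no assigned class also carried G2/M genes, at 1150, 1200, 1000, 486 and 529 CPM with shared barcodes included. Migratory dendritic cells, which are taken as non-dividing, had 56.7, 183, 106, 161 and 139 CPM, and 50.8, 87.5, 69.9, 161 and 139 CPM with shared barcodes left out.

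**Figure D3:**
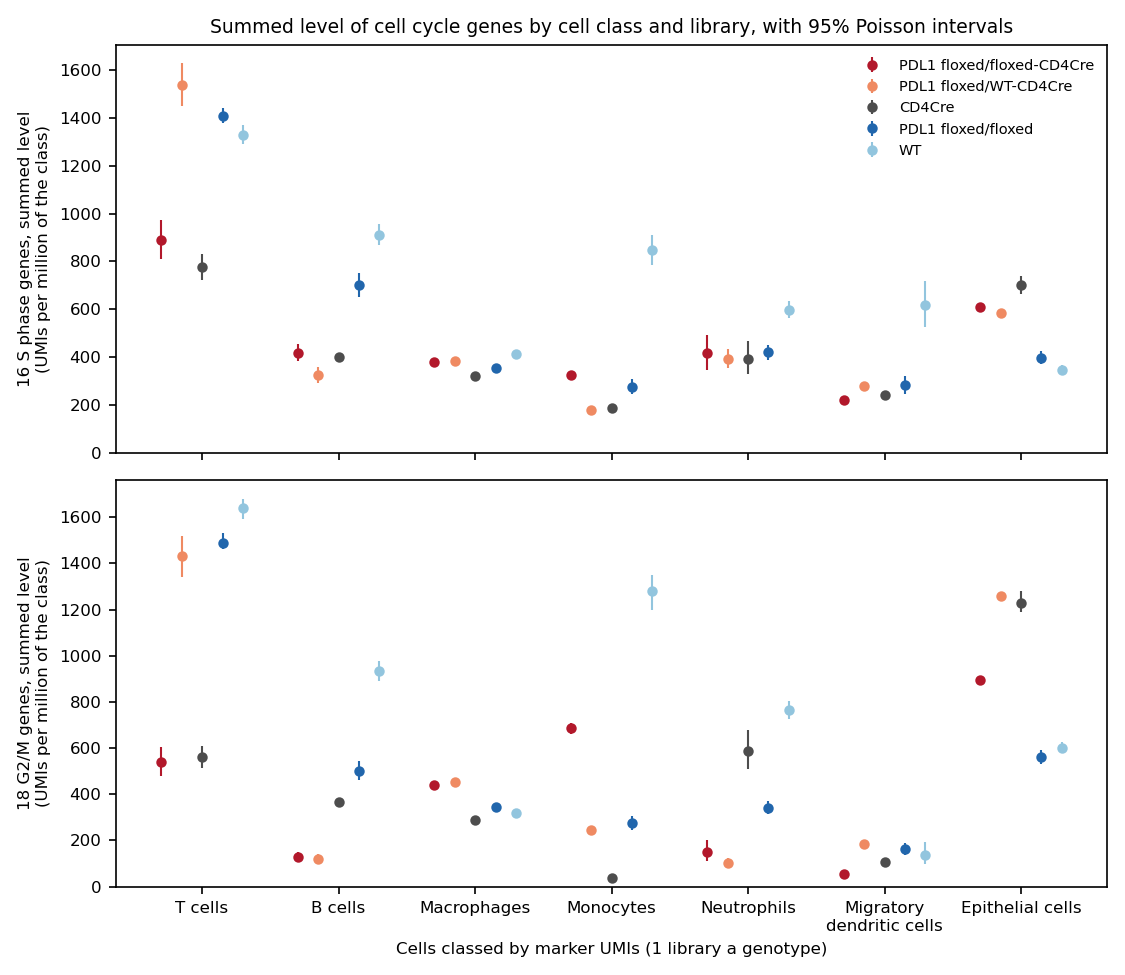
Summed CPM of the S phase and the G2/M members in the larger cell classes of the 5 single-cell libraries, with 95% Poisson intervals for counting error only. T cells of PDL1 floxed/WT-CD4Cre, PDL1 floxed/floxed and WT lie highest for S phase; monocytes spread most between libraries, from 37.6 to 1280 CPM for G2/M.

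Among T cells, CD8 T cells numbered 20, 35, 42, 460 and 308, and their G2/M genes summed to 136, 1690, 825, 1570 and 1630 CPM. T cells with Foxp3, the factor of regulatory T cells, numbered only 6 to 18 per library and had 385, 1410, 998, 2090 and 2270 CPM. CD4 T cells without Foxp3, 15 to 38 per library, had 995, 185, 119, 152 and 1550 CPM. These subsets hold too few cells in the Cre-carrying libraries for an order to be read from them.

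To compare shares across depths, each cell was thinned to 2000 UMIs, which left out 0, 10, 2, 0 and 0 shallower T cells. A T cell with UMIs of 2 or more G2/M members was then found in 4.92% of cells in PDL1 floxed/floxed-CD4Cre (interval 1.03 to 13.7%), 20.0% in PDL1 floxed/WT-CD4Cre (10.8 to 32.3%), 5.22% in CD4Cre (1.94 to 11.0%), 20.9% in PDL1 floxed/floxed (17.6 to 24.5%) and 19.3% in WT (15.4 to 23.6%). Unthinned, the shares were 18, 38.3, 16.5, 36.6 and 33.4%. For S phase members the thinned shares were 19.7, 40, 17.4, 37.7 and 36.6%, and cells with 2 or more of both made up 3.28, 18.3, 3.48, 15.6 and 14.2%. Macrophages had 5.59, 9.19, 4.22, 6.18 and 6.32% for G2/M, and B cells 1.09, 1.72, 2.31, 11.2 and 11.0%. In migratory dendritic cells, taken as the background, the share ran from 0.412 to 3.23% in the 4 libraries with more than 50 such cells, at median depths of 9564 to 13448 UMIs. T cells of PDL1 floxed/floxed-CD4Cre and CD4Cre had intervals that reach into that range. With shared barcodes left out, the G2/M shares of T cells were 3.45% (0.42 to 11.9%), 14.3% (6.38 to 26.2%), 2.88% (0.599 to 8.2%), 21% (17.7 to 24.6%) and 19.3% (15.4 to 23.7%), of 58, 56, 104, 562 and 373 cells. The homozygous and the Cre-only library stayed lowest. Macrophages then had 3.73, 7.48, 3.09, 6.04 and 6.29%, and B cells 0.552, 1.74, 1.38, 11.2 and 10.6%.

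**Figure D4:**
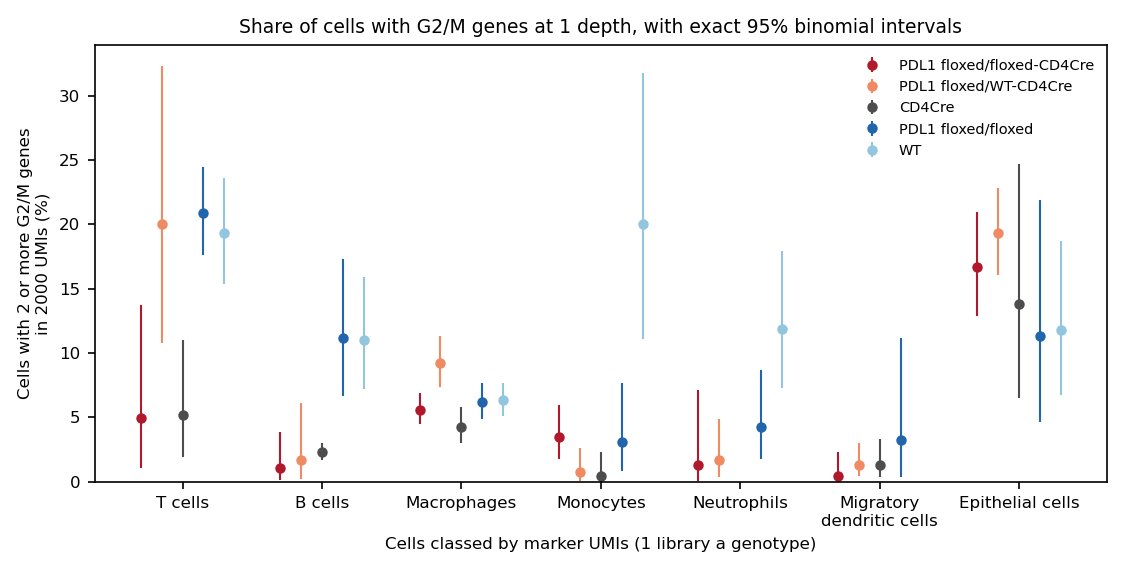
Share of cells with UMIs of 2 or more G2/M members after thinning each cell to 2000 UMIs, by cell class and library, with exact 95% binomial intervals for counting error only. T cells fall at 4.92 and 5.22% in PDL1 floxed/floxed-CD4Cre and CD4Cre and at 19.3 to 20.9% in the other 3 libraries.

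Few cells held 50% of the G2/M signal. The number of T cells that together held 50% of their class's G2/M UMIs was 1 of 61, 4 of 70, 2 of 117, 30 of 565 and 19 of 374. In the 3 Cre-carrying libraries all of these cells carry a shared barcode, at median depths of 30995, 37415 and 57878 UMIs, against 6672, 7675 and 6089 UMIs for the class. In the other 2 libraries 0 of the 30 and 0 of the 19 cells do, at 17290 and 16271 UMIs, against 7637 and 6752 UMIs for the class. No G2/M UMI at all was found in 57.4, 34.3, 65, 43 and 41.4% of T cells. With every shared barcode left out, T cells had 267, 722, 143, 1500 and 1640 CPM of G2/M genes and 638, 1210, 372, 1420 and 1330 CPM of S phase genes. All 3 Cre-carrying libraries were lower by this, and CD4Cre then lay below PDL1 floxed/floxed-CD4Cre. Macrophages changed in the same direction, to 128, 180 and 110 CPM of G2/M genes in the Cre-carrying libraries, against 330 and 321 CPM in PDL1 floxed/floxed and WT. In macrophages, 15 of 1649, 10 of 1017, 9 of 905, 25 of 1198 and 33 of 1503 cells held 50% of the G2/M UMIs, and 15, 9, 9, 2 and 0 of these carry a shared barcode.

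Single members were compared between PDL1 floxed/floxed-CD4Cre and CD4Cre where both held at least 100 cells of a class, by a rule of size: 50 CPM or more in the higher library, a log2 difference of 1 or more and Poisson intervals apart. In monocytes 5 of the 6 members at 50 CPM were higher by this rule (2.47% of the genes compared were) and 0 were lower (1.42%). Cenpf had 82.8 CPM in PDL1 floxed/floxed-CD4Cre, against 1.21 CPM in CD4Cre (log2 6.10). Ube2c, the ubiquitin-conjugating enzyme of the anaphase-promoting complex, had 69.5 CPM, against 1.62 CPM (5.42), and Cenpe 70.7 CPM, against 2.43 CPM (4.86). Top2a had 101 CPM, against 6.88 CPM (3.88), and Mki67 77.7 CPM, against 15.8 CPM (2.30). These values rest on few cells with shared barcodes: 2 of 375 monocytes of PDL1 floxed/floxed-CD4Cre held 50% of the G2/M UMIs, at a median of 118234 UMIs against 11645 UMIs for the class, and both barcodes are shared. Neutrophil markers in the monocyte class summed to 3310, 97.2, 165, 4900 and 11300 CPM in the 5 libraries, and their part was not tested. With shared barcodes left out (336 and 237 cells), Mki67 was at 7.92 CPM in PDL1 floxed/floxed-CD4Cre, against 16.5 CPM in CD4Cre (log2 -1.06, intervals apart), so its direction turned. Top2a was then at 4.81 CPM, against 5.81 CPM, Cenpe at 1.98, against 1.34, Cenpf at 3.39, against 1.34, and Ube2c at 2.83, against 1.79 CPM, none with intervals apart. The monocyte class as a whole then had 39 CPM of G2/M genes in PDL1 floxed/floxed-CD4Cre, 39.2 in PDL1 floxed/WT-CD4Cre and 36.2 in CD4Cre.

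In B cells 1 of 4 members at 50 CPM met the rule. Mki67 had 25.0 CPM in PDL1 floxed/floxed-CD4Cre, against 95 CPM in CD4Cre (log2 -1.93, where 0.446% of genes were lower and 0.764% higher). With shared barcodes left out it had 9.42 against 41.1 CPM (-2.13, intervals apart). The share of B cells with Mki67 was similar after thinning, at 2.72% (interval 0.888 to 6.23%), against 2.99% (2.32 to 3.78%). Unthinned it was 7.07%, against 6.65%. Few B cells held 50% of the G2/M UMIs, 2 of 191 and 11 of 2238. Their median depths were 34934 and 26491 UMIs, against 5423 and 4793 UMIs for the class. Of these cells 2 and 9 carry a shared barcode. In macrophages 0 of 3 members met the rule (1.71% of genes higher and 0.796% lower), and in migratory dendritic cells 0 of 1 (0.766% higher and 0.333% lower). T cells of PDL1 floxed/floxed-CD4Cre were too few for the comparison.

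The same rule was applied to PDL1 floxed/floxed against WT, neither of which carries Cre. Among T cells 0 of 25 members met it (0.673% of genes were higher and 0.449% lower), and among CD8 T cells 0 of 25 (0.678% higher, 0.565% lower). Macrophages gave 0 of 3 (2.55% higher, 0.411% lower). In B cells 4 of 17 members were lower (0.746% of genes were) and 0 were higher (5.22%). Birc5 had 49 CPM in PDL1 floxed/floxed, against 118 CPM in WT (log2 -1.27), Tyms, thymidylate synthase, 23.2 against 54.7 CPM (-1.24), Cdc20 26.7 against 61.5 CPM (-1.20) and Ccnb2 26.7 against 57.9 CPM (-1.12). In B cells 5 of 152 cells in PDL1 floxed/floxed and 6 of 218 in WT held 50% of the G2/M UMIs. Their median depths were 11679 and 33135 UMIs, against 6036 and 6722 UMIs for the class. After thinning, B cells of PDL1 floxed/floxed were not lower in sum. G2/M genes then had 414 CPM, against 358 CPM in WT, and S phase genes 543, against 495 CPM. The thinned G2/M shares were 11.2 and 11.0%. The 4 members were not compared singly after thinning. In neutrophils 4 of 9 members were lower, while 5.94% of genes were, and 0 were higher, while 6.69% of genes were. These were Rrm2 with 22.5 CPM in PDL1 floxed/floxed, against 69.2 CPM in WT (-1.62), Top2a with 31.8 against 79.8 CPM (-1.33), Ube2c with 61.8 against 128 CPM (-1.05) and Mcm6 with 25.0 against 50.8 CPM (-1.02). In neutrophils 3 of 163 cells in PDL1 floxed/floxed and 6 of 160 in WT held 50% of the G2/M UMIs, at median depths of 28217 and 29284 UMIs, against 6420 and 8176 UMIs for the class. Macrophage markers in the neutrophil class summed to 7470 CPM in PDL1 floxed/floxed and 10400 CPM in WT. In the macrophage class they summed to 29100 and 37000 CPM. The part of such RNA in the neutrophil values was not tested.

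With shared barcodes included, the members did not move together between the Cre-carrying libraries and the other 2. With them left out, most members compared were lower in T cells and macrophages of the Cre-carrying libraries, as given below. In T cells 3 of 36 members at 5 CPM were higher in all 3 Cre-carrying libraries than in both others (44.3% of genes were) and 15 were lower (21.5% of genes), 3 of them S phase and 12 G2/M genes. Cdc20, the activator of the anaphase-promoting complex, had 7.37, 5.67 and 18.3 CPM in PDL1 floxed/floxed-CD4Cre, PDL1 floxed/WT-CD4Cre and CD4Cre, against 84.0 and 93.0 CPM in PDL1 floxed/floxed and WT. Ccnb2 had 25.8, 28.4 and 20.3 CPM, against 128 and 113 CPM, and Cdk1 20.3, 41.1 and 20.3 CPM, against 128 and 111 CPM. Every Cre-carrying library was below both others for these 3 genes, also where the summed G2/M level was high, as in PDL1 floxed/WT-CD4Cre. Ube2c, Birc5, Ccnb1, Ccna2, Plk1 and Tyms split likewise. Mki67 split the other way, with 92.1, 323 and 101 CPM, against 59.9 and 79.9 CPM, as did Uhrf1, with 64.5, 80.8 and 49.9 CPM, against 31.2 and 24.4 CPM, and Ccne2, with 18.4, 22.7 and 20.3 CPM, against 7.86 and 13.5 CPM. Top2a did not split, with 105, 431 and 127 CPM, against 167 and 185 CPM, nor did Mcm6, with 133, 179 and 90.5 CPM, against 168 and 141 CPM. With shared barcodes left out, 0 of 36 members were higher in T cells of all 3 Cre-carrying libraries (43.1% of genes were) and 23 were lower (23.5% of genes), 8 of them S phase and 15 G2/M genes, and 14 of these 23 were lower with shared barcodes too. Mki67 then had 57.8, 169 and 38.4 CPM, against 60 and 80 CPM, and no longer split. Cdk1 had 7.23, 37.7 and 0 CPM, against 128 and 112 CPM, and stayed lower.

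Macrophages and epithelial cells were compared in the same way. In macrophages 11 of 33 members were higher (57.8% of genes) and 11 lower (21.6%). Mki67 lay at 64.2 to 72.8 CPM in the Cre-carrying libraries, against 20.5 to 21.7 CPM in the other 2, and Cenpf at 19.3 to 41.8, against 10.7 to 13.2 CPM. Birc5 lay at 18.8 to 32.3 CPM, against 55.1 to 63.5 CPM, and Cdc20 at 3.49 to 8.77, against 12.6 to 15.3 CPM. In epithelial cells 22 of 34 members were higher (49.3% of genes) and 2 lower (26.4%), among the higher Mki67 at 99.7 to 128 CPM, against 19.3 to 21.6 CPM. With shared barcodes left out, 1 of 29 members was higher in macrophages (55.3% of genes were) and 24 were lower (24.7%). The higher one was Mki67, with 26.8, 31 and 23.1 CPM in PDL1 floxed/floxed-CD4Cre, PDL1 floxed/WT-CD4Cre and CD4Cre, against 20.1 and 21.8 CPM in PDL1 floxed/floxed and WT. Cenpf turned, with 9.13, 10.5 and 4.84 CPM, against 12.9 and 10.7 CPM, while Cdk1 had 3.72, 10.2 and 4.08 CPM, against 25.4 and 29.8 CPM. In epithelial cells 9 of 35 members were then higher (27.5% of genes) and 10 lower (25.4%), with only 15 such cells in CD4Cre. Mki67 had 47.5, 32.4 and 32 CPM there, against 21.6 and 19.3 CPM, and Cdk1 9.51, 11.7 and 21.4 CPM, against 46.3 and 33.1 CPM. Cdk1 was thus lower in the 3 Cre-carrying libraries in all 3 classes with and without shared barcodes, whereas Mki67 was higher in T cells only with them. The libraries of this split differ in gene list and in shared barcodes as well as in Cre, and these cannot be told apart.

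**Figure D5:**
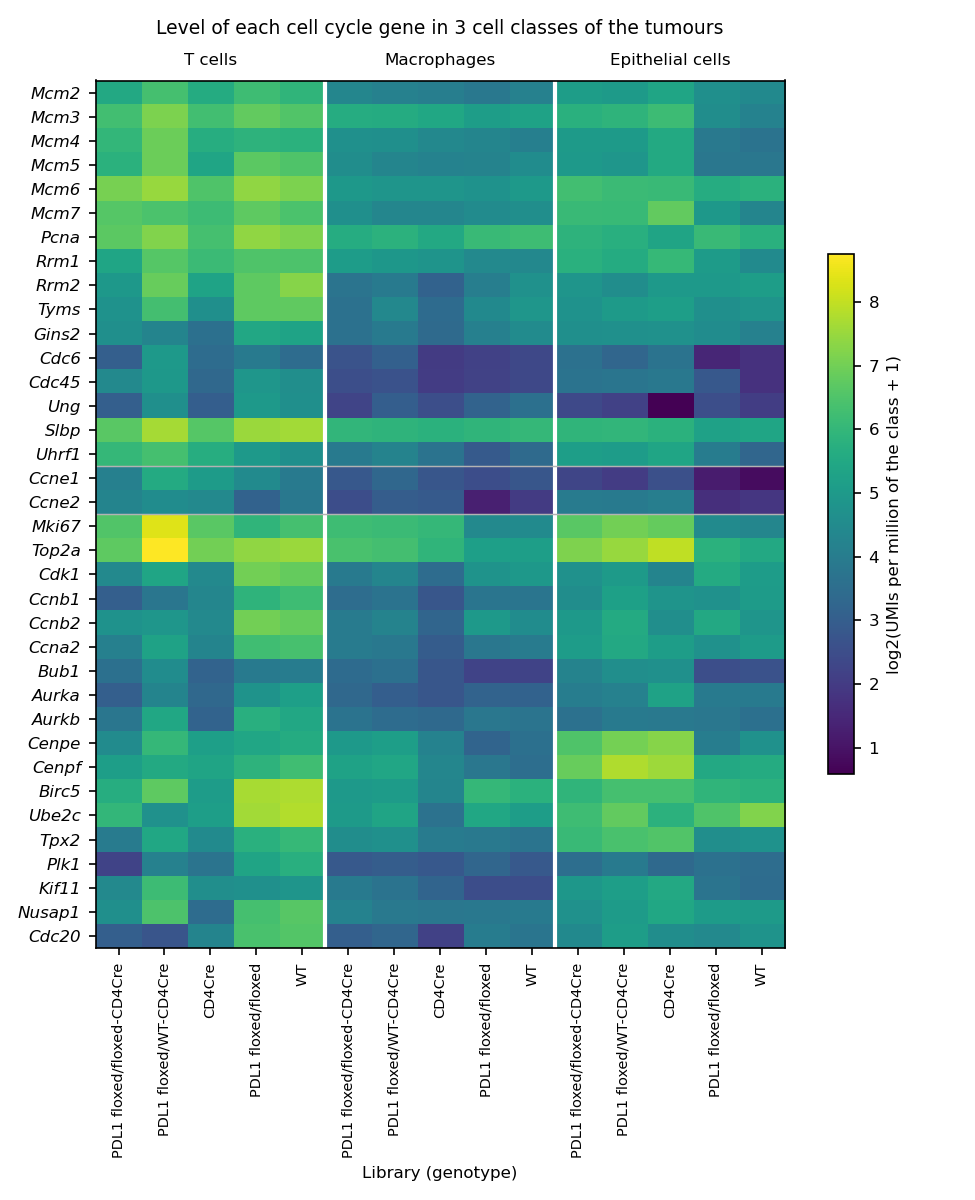
Heat map of the level of each member (colour, log2 of CPM + 1; members down the page by role) in T cells, macrophages and epithelial cells of the 5 single-cell libraries. In T cells Cdc20, Ccnb2 and Cdk1 lie lower in the 3 Cre-carrying libraries than in PDL1 floxed/floxed and WT, while Mki67, Uhrf1 and Ccne2 lie higher; shared barcodes are included, and none of the 3 is higher in T cells without them.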

How the data were processed

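The 12 bulk libraries were used as raw read counts by gene symbol in tables that the authors deposited, and the 5 single-cell libraries as their deposited matrices of UMI counts. Per the submitters' processing notes, STAR, HTSeq, bedtools, bcl2fastq and Cell Ranger were used with mm10, and 3 matrices name Cell Ranger 3.1.0 per the file headers. The strand setting is not given in the sources used here. Reads on no gene (not aligned, ambiguous or outside genes), 42.6 to 88.2% of a library, stayed out of library sizes. The members and all lists were chosen with earlier results of these data known.

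All 12 bulk libraries were fitted together with edgeR 4.0.16 (R 4.3.3; TMM scaling, default expression filter, robust quasi-likelihood tests). Adjusted p-values are Benjamini-Hochberg values over all 14653 genes, with a threshold of 0.05, and CPM use unscaled gene-count totals. Groups follow the titles. Named members are those past the threshold without overlap (up to 5 with the largest change each way) or, with no such member, the 3 of smallest p in each direction, besides a fixed set of markers; of the wider list, up to 3 each way. Members given by library or for the single-cell split, and the genes of the wider list given by level, were chosen after their values were seen. Alternatives were DESeq2 1.42.0, its size factors, no scaling, no filter, only the libraries compared, the treatment field as group, omission of the 4 libraries with conflicting labels, a block for the replicate number and leaving out each library. The scripts were tested on simulated counts, and calls at 2-fold were 88.1% in PD1_Fc against Ctrl_Fc and 100% in PDL1_Fc against Control. Replicate numbers did not pair the libraries. No bulk libraries were identical.

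Cells were kept from 200 genes upwards if mitochondrial UMIs were 10% or less (Python 3.11.15, scanpy 1.11.5), the lower copies of shared barcodes were left out, doublets were removed with a nominal rate of 0.8% per 1000 cells (2.29 to 3.53% of cells), and a class needed at least 2 of its markers. File names of the PDL1 floxed/WT-CD4Cre and WT libraries contradict the labels, which were followed. Poisson and exact (Clopper-Pearson) binomial intervals are at 95%. Exon lengths come from GENCODE on GRCm38 and promoters from RefSeq.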

Additional observations from a re-analysis of the deposited data

How the results depend on the processing

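Whether any member passed in PD1_Fc against Ctrl_Fc or PDL1_Fc against Control did not depend on the alternatives that keep the groups of the titles. In each of these 0 members were called, leaving out any library included (0). The log2 values by the treatment field, which regroups the libraries, are given below. Across the library sets the counts of calls stayed within 1.5-fold except under the treatment field, where PD1_Fc against PDL1_Fc gave 0 genes and 0 members. Over all genes, PD1_Fc against Ctrl_Fc gave 18 calls with DESeq2, 27 with only the libraries compared, 0 by the treatment field, 2 without the 4 conflicting libraries and 0 to 8 with 1 library left out. PDL1_Fc against Control gave 1 without the filter and 0 to 1 with 1 library left out. The difference of differences gave 8 with DESeq2, 0 to 3 with 1 library left out and, by the treatment field, 10130 genes and 24 members. Leaving out 1 library gave 12476 to 14090 genes and 32 to 33 members in Ctrl_Fc against Control, and 12406 to 14069 genes and 33 members in PD1_Fc against PDL1_Fc. The replicate numbers do not pair the libraries (correlations from -0.0994 to 0.0415); with the replicate number as a block the calls were 7, 0, 13418, 13405 and 1 genes and 0, 0, 32, 34 and 0 members, in the order of PD1_Fc against Ctrl_Fc, PDL1_Fc against Control, Ctrl_Fc against Control, PD1_Fc against PDL1_Fc and the difference of differences.

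Of 387 values of single results under alternatives that keep all libraries or regroup them, 336 kept direction and side of the threshold, 48 changed direction and 3 became calls; with 1 library left out 422 of 456 kept both. Small changes turned sign in PD1_Fc against Ctrl_Fc for Rrm2 (-0.01 with DESeq2, -0.01 with its size factors, -0.02 with only the libraries compared) and Gins2 (0.01 without the filter, 0.02 with the block, 0.01 without the 4 libraries), and for Plk1 in the difference of differences (0.02 without the filter). By the treatment field, log2 values turned in PD1_Fc against Ctrl_Fc for Cenpe (-0.41), Mcm6 (-1), Ccna2 (-0.96), Pcna (2.71), Mki67 (-0.25), Top2a (-1.14), Cdk1 (-0.55), Rrm2 (-1.22) and Ccne2 (-0.96). In PDL1_Fc against Control they turned for Mcm4 (4.87), Cenpf (6.30), Mcm5 (4.59), Mki67 (0.33), Top2a (6.75), Cdk1 (1.42), Pcna (-3.20), Mcm6 (4.89), Rrm2 (7.46) and Ccne2 (3.46). In PD1_Fc against PDL1_Fc they turned for Cenpf (-1.14), Ccnb2 (-1.40), Ccna2 (-1.10), Rrm2 (-1.19), Cdc20 (-1.34), Pcna (2.55), Ccne1 (0.92), Mki67 (-0.38), Top2a (-1.29), Cdk1 (-0.68), Mcm6 (-1.19) and Ccne2 (-1.28). In the difference of differences they turned for Cenpe (-2.75), Mcm4 (-6.02), Cenpf (-7.24), Pcna (5.91), Mki67 (-0.58), Top2a (-7.89), Cdk1 (-1.97), Mcm6 (-5.89), Rrm2 (-8.68) and Ccne2 (-4.42). The treatment field leaves 1 library (PD1_Fc library 3) as PDL1_Fc against 5 of both sets as PD1_Fc, and the lone library is assumed to vary like the others.

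With 1 library left out, sign changes occurred in PD1_Fc against Ctrl_Fc for Pcna (-0.24 to 0.09), Gins2 (-0.25 to 0.25), Mki67 (-0.05 to 0.21), Rrm2 (-0.02 to 0.12) and Mcm5 (-0.07 to 0.04). In PDL1_Fc against Control they occurred for Tpx2 (-0.01 to 0.25), Pcna (-0.08 to 0.02), Ccne1 (-0.10 to 0.01), Rrm2 (-0.73 to 0.20), Top2a (-0.32 to 0.01), Slbp (-0.04 to 0.30), Ccne2 (-0.65 to 0.19) and Cdk1 (-0.16 to 0.01), and in the difference of differences for Rrm2 (-0.21 to 0.72), Pcna (-0.25 to 0.08), Plk1 (-0.18 to 0.15), Slbp (-0.28 to 0.06) and Ccne2 (-0.03 to 0.81). Mki67 in PD1_Fc against PDL1_Fc ran from 0.36 to 0.76 and lost its call without PDL1_Fc library 2.

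In single cells, the log2 ratio of PDL1 floxed/floxed-CD4Cre over CD4Cre was 0.20 for S phase genes in T cells, and 0.78 with shared barcodes left out. For G2/M genes in T cells it was -0.06, and 0.90 with shared barcodes left out and 0.69 after thinning. In macrophages the S phase ratio of 0.24 became 0.47 with a stricter marker rule, -0.01 with shared barcodes left out and 0.09 after thinning. Their G2/M ratio of 0.61 became 0.96 with stricter cell filters, 0.29 with the stricter marker rule, 0.22 with shared barcodes left out and 0.39 after thinning. The stricter marker rule kept 39 of 1649 and 20 of 905 macrophages, at median depths of 2119 and 1905.5 UMIs, and gave no value for T cells. Leaving out shared barcodes, also for single members, splits between libraries and shares, and the fit without scaling were chosen after seeing the data. The causes of these shifts were not tested. Few counts limit Ccnb1 in all bulk groups, and Cenpf, Ccnb2 and Kif11 in PDL1_Fc and Control. The same holds there for Ccna2 (15 reads in PDL1_Fc and 17 in Control), Cdc20 (15 and 22), Ube2c (11 and 26) and Rrm2 (22 and 31).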
